A study of Mus musculus with 4 samples.

Results

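ATP-dependent chromatin remodelers were examined in the RNA of mouse 2-cell embryos cultured with or without dimethyl sulfoxide (DMSO). The members were 10 genes chosen by name, the SWI/SNF genes Smarca2, Smarca4, Smarcb1, Smarcc1 and Arid1a, the ISWI gene Smarca5, the CHD genes Chd1 and Chd4, and the INO80 genes Ino80 and Ruvbl1. Of these, 9 had a row among the 30049 Ensembl genes of the deposited table, and Smarcc1 was not analysed here. Wild type embryos from crosses between BDF1 mice, themselves hybrids of C57BL/6 and DBA/2, were taken as zygotes 18 h after human chorionic gonadotropin (hCG) and kept in KSOM embryo culture medium for 24 h. The control group received nothing else, and the other group received 2% DMSO. For each group 50 embryos that had reached the 2-cell stage were collected, so embryos that had not divided are not represented. There were 2 libraries per group, and whether they came from separate pools of embryos is not stated, so p-values measure only the spread between these libraries. In pooled embryos, fewer cells holding a transcript and less of it per cell cannot be told apart.

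Chromatin remodelers use the energy of ATP to slide, eject or exchange nucleosomes. The SWI/SNF (BAF) complexes are built around either Smarca4 (BRG1) or Smarca2 (BRM) as the motor subunit and open regulatory DNA, ISWI complexes around Smarca5 (SNF2H) space nucleosomes evenly, CHD proteins bind modified histones or serve in the NuRD deacetylase complex, and INO80 complexes exchange histone variants. In the mouse, BRG1 stored in the egg is needed for the embryo to start transcription from its own genome at the 2-cell stage, which is when these libraries were made.

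The values are TPM, which correct the reads of a gene for the length of its transcripts and for library size, so levels can be set side by side between genes. They keep no depth, and the precision of a single value is unknown. The TPM of all listed genes added up to 768174 in control replicate 1, 780527 in control replicate 2, 772487 in DMSO replicate 1 and 799166 in DMSO replicate 2. The 13 mitochondrial genes held 10.8% and 12.4% of these sums without DMSO and 15.3% and 21.7% with it, and the 20 most abundant genes held 22.1% and 23.6% against 29.4% and 35.1%. The part of these differences in the results below was not tested.

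The stage was checked against marker genes. All 10 markers of the 2-cell stage that had a row, of 12 listed, were present. Their summed level was 897 and 643 TPM without DMSO and 2471 and 1722 TPM with it, and Tcstv3 was the most abundant. Of 12 oocyte and maternal genes, 11 had a mean of at least 1 TPM, and their sums were 12757 and 16067 TPM against 13705 and 17436 TPM. Dppa3 made up most of each sum, at 11639 and 15346 TPM without DMSO and 10828 and 15216 TPM with it. For 7 of the 12 maternal genes both DMSO libraries were above both control libraries, as they were for 31.1% of all genes tested, among them Oosp1, at 877 and 576 TPM against 2086 and 1763 TPM, and Bmp15, at 102 and 56 TPM against 544 and 285 TPM. Both were below for Mos, at 5.14 and 5.51 TPM against 3.83 and 2.94 TPM, and for Zp3, at 1.56 and 2.35 TPM against 1.44 and 0.956 TPM. Nlrp5, a maternal gene, was listed at 0 and 0.142 TPM without DMSO and at 0 and 0.129 TPM with it. Of 12 markers of cumulus and granulosa cells, which surround the egg, 9 stayed below 1 TPM in every library and Amh and Inhba were listed at 0 in all. They summed to 3.87 and 2.86 TPM against 5.30 and 4.01 TPM, Cyp11a1 being the highest. The 5 blood cell markers summed to 7.24 and 1.68 TPM against 5.36 and 17.3 TPM, with Hba-a1 the most abundant on average and Lyz2, at 9.39 TPM, the highest in DMSO replicate 2. Both DMSO libraries were also above both control libraries for 7 of the 10 markers of the 2-cell stage, against the same 31.1% of all genes, and the part of these marker differences in the results on remodelers was not tested.

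The promoters of the called genes are shown first. Smarca2 rose and the others fell in the same comparison, and whether promoter letters bear on this was not tested. Promoter sequences from RefSeq (GRCm38.p6) were matched for 9 of the 10 members, Chd1 being the other. The 250 bases before the RefSeq start were taken for Smarca2, which was higher in DMSO-treated embryos, and for Smarca4 and Smarca5, which were lower. By the GENCODE coordinates given below, the Smarca2 and Smarca5 windows lie partly inside the gene. The sequences read 5′ to 3′ as follows, with matches to the motifs named below in capitals.
Smarca2, chr19:26604910-26605159, plus strand: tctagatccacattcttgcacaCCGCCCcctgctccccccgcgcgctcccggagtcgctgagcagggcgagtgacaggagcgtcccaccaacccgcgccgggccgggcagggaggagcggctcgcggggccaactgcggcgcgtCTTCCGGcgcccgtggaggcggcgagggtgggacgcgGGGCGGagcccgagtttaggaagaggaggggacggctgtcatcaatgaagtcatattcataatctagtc
Smarca4, chr9:21615919-21616168, plus strand: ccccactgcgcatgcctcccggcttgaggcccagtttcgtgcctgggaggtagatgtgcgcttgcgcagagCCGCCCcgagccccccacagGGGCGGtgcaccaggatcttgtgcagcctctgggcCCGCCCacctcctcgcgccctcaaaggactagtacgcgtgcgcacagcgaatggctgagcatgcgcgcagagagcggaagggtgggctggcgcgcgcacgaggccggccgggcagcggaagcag
Smarca5, chr8:80739460-80739709, minus strand: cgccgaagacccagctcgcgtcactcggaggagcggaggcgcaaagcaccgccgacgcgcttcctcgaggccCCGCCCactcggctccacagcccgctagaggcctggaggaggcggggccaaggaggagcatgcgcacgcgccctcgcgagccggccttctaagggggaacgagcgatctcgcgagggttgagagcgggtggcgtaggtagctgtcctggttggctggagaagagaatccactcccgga
All 3 sequences were rich in G and C, at 68.4%, 70.8% and 69.2%, against a median of 52.4% over 32851 promoter entries. They held 28, 25 and 29 CpG dinucleotides, where the median entry held 6. The GC box GGGCGG, read on both strands, occurred in each of them and in 32.7% of all entries of this length, with 2 matches for Smarca2, 3 for Smarca4 and 1 for Smarca5. The ETS motif CCGGAAG was found, on the reverse strand, in the Smarca2 sequence alone of these 3, and in 6.91% of all entries. The CCAAT box, the TATA box (TATAAA), the OTX and OBOX core GGATTA and the YY1 motif AAGATGGCG were searched on both strands and had no match in the 3 windows. They occur in 33.8%, 12.4%, 6.25% and 0.606% of all entries. Of the members not shown, Arid1a, Smarcb1, Smarcc1, Chd4 and Ino80 also held the GC box, and Ruvbl1 did not. A match describes letters and not a bound factor.

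Of the 9 members in the table, 7 had a mean of at least 1 TPM and were tested on log2(TPM + 1) with limma, which fits a linear model to each gene and moderates its variance towards that of the others. At a Benjamini-Hochberg adjusted p-value under 0.05 over all 12038 genes tested, 4 of the 7 were called, Smarca2 higher and Smarca4, Smarca5 and Chd1 lower in DMSO-treated embryos. In the same fit 20.5% of all genes were called, 6.42% higher and 14.1% lower. With a mean of at least 5 TPM required, a larger share was called, 2450 of 7470 genes, with 4 of the 7 members. The 20.5% is therefore a low reference for the more abundant genes. The median log2 fold change was -0.50 over the 7 members and -0.09 over all genes tested. The libraries of the 2 groups did not overlap for any of the 7, with 2 genes above and 5 below the controls, but this was so for 69.8% of all genes tested, 31.1% above and 38.7% below. The balance of higher and lower calls depended on how libraries were scaled. On the deposited values 773 genes were called higher and 1697 lower, and after quantile normalization, which gives every library the same distribution of values, 1076 (8.94%) and 1121 (9.31%), when Smarca2 was the only member still called. With any 1 of the 4 libraries left out, limma called 0 of the 7 members, and 3 to 5 of them had an unadjusted p-value under 0.05.

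**Figure D1:**
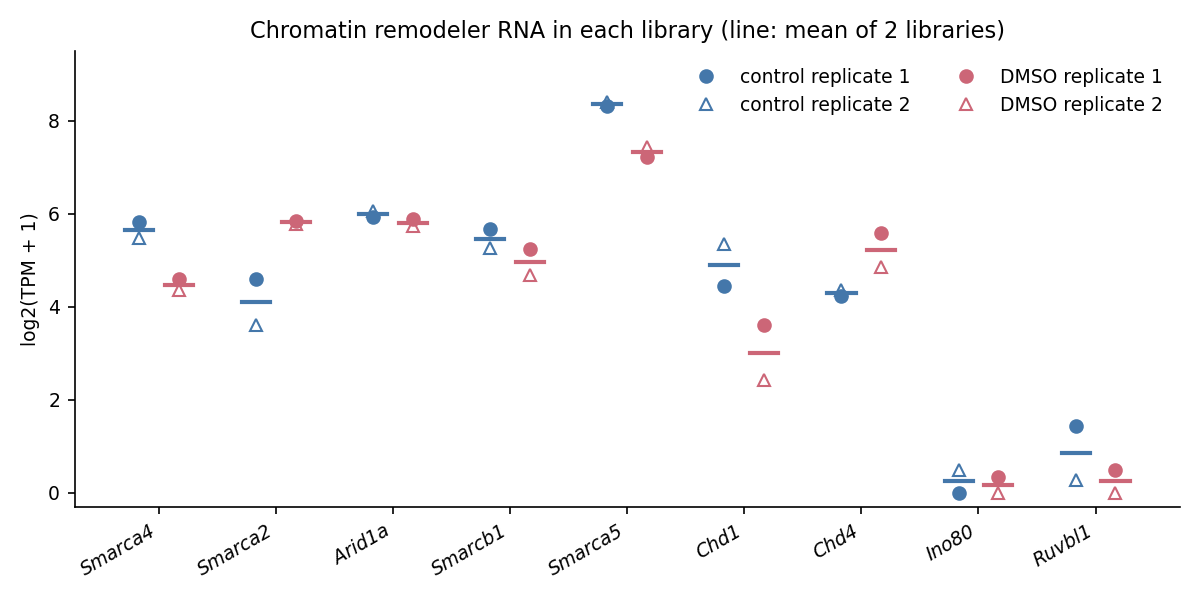
Level of the 9 remodeler genes with a row in the table, as log2(TPM + 1) on the vertical axis, in control libraries (blue) and DMSO libraries (red), with filled circles for replicate 1, open triangles for replicate 2 and a line at the mean of 2 libraries. Smarca2 and Chd4 lie higher in both DMSO libraries, Smarca4, Smarca5 and Chd1 lower, and Ino80 and Ruvbl1 lie near 0 in both groups.

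Among the 4 pairs of paralogs compared, the ratio differed most for Smarca4 and Smarca2, the alternative motor subunits of SWI/SNF. Smarca4 (ENSMUSG00000032187), on chromosome 9 of GRCm38 from 21616169 to 21704230, measured 55.2 and 43.2 TPM without DMSO and 23.0 and 19.4 TPM with it. Both DMSO libraries were below both control libraries. Its mean fell from 49.2 ± 8.51 TPM to 21.2 ± 2.58 TPM (SD, n = 2 each), for a log2 fold change of -1.17 ± 0.28 (standard error, adjusted p = 0.0364 by limma and 0.0505 after quantile normalization). Smarca2 (ENSMUSG00000024921), on chromosome 19 from 26605050 to 26778322, measured 23.1 and 11.1 TPM without DMSO and 56.7 and 53.6 TPM with it. Here the DMSO libraries were close to each other and above both controls, which differed from one another more. Its mean rose from 17.1 ± 8.52 TPM to 55.2 ± 2.21 TPM (SD, n = 2 each), for a log2 fold change of 1.72 ± 0.38 (standard error, adjusted p = 0.0309 by limma and 0.0268 after quantile normalization).

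In RNA, the more abundant gene of the motor pair changed from Smarca4 to Smarca2. These libraries do not measure the proteins. Smarca4 made up 70.5% and 79.6% of the summed TPM of the pair without DMSO and 28.9% and 26.5% with it. The sum itself was 78.3 and 54.2 TPM against 79.7 and 73.0 TPM, so that the groups overlapped. The log2 ratio of Smarca4 to Smarca2, each as TPM + 1, was 1.55 ± 0.46 in control embryos and -1.34 ± 0.11 in DMSO-treated embryos (SD, n = 2 each). The difference of -2.89 stayed between -3.22 and -2.57 when any 1 library was left out and was -2.90 with quantile normalization. Median-ratio scaling, also at -2.89, could hardly move the difference, since a factor common to a library nearly cancels in such a ratio. A two-sided exact permutation test of 2 libraries against 2 cannot go below p = 0.333, which is the value it gave for this pair (0.333 adjusted over the 4 pairs compared). The transcripts of Smarca4 and Smarca2 in GENCODE M21 share 0% of their 31-base words, the unit by which kallisto assigns reads, and 1.35% and 0.946% of their words occur in any other gene. The annotation lists 46 transcripts for Smarca2, and the gene sums cannot show which of them changed.

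**Figure D2:**
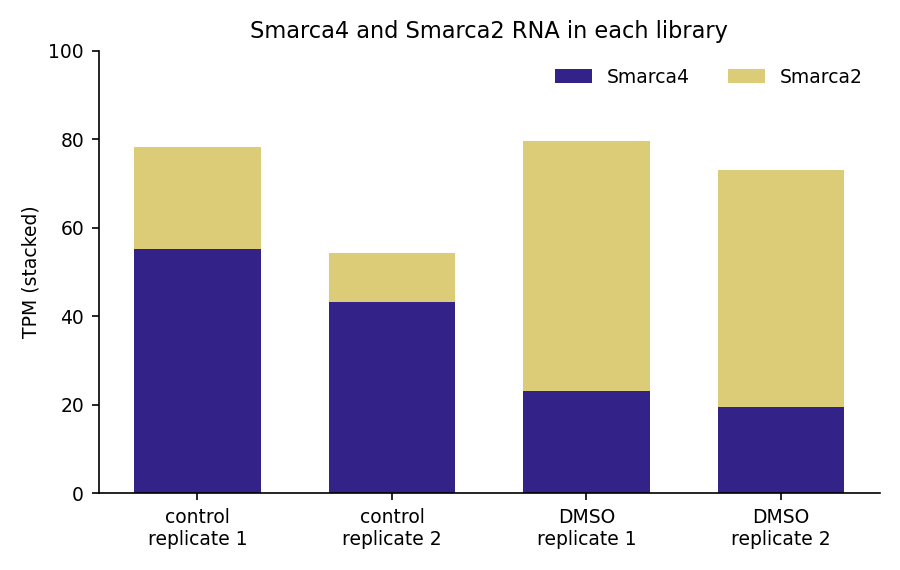
TPM of the SWI/SNF motor subunits Smarca4 (dark) and Smarca2 (light), stacked on a linear axis from 0 for each of the 4 libraries. The Smarca4 share of the bar is 70.5% and 79.6% without DMSO and 28.9% and 26.5% with it.

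The other SWI/SNF members did not pass the test. Arid1a (ENSMUSG00000007880, chromosome 4 from 133679008 to 133756769), the DNA-binding subunit that defines the BAF form, measured 59.5 and 65.7 TPM without DMSO and 58.1 and 52.1 TPM with it. Both DMSO libraries were lower by a small margin, and the log2 fold change was -0.18 with a 95% confidence interval from -0.79 to 0.43 (limma adjusted p = 0.613), turning to 0.11 after quantile normalization. Smarcb1 (ENSMUSG00000000902, chromosome 10 from 75896769 to 75921617), a core subunit that contacts the nucleosome, was at 49.5 and 37.5 TPM against 36.9 and 24.6 TPM. The nearest libraries of the groups, at 37.5 and 36.9 TPM, were closer to each other than the replicates within either group. The log2 fold change was -0.50 with an interval from -1.27 to 0.26 (limma adjusted p = 0.271). The value of Smarca2 lies outside both intervals, while that of Smarca4 lies inside the interval of Smarcb1.

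Smarca5 (ENSMUSG00000031715, chromosome 8 from 80698507 to 80739497), the motor of most ISWI complexes, was the most abundant member in every library. It measured 317 and 335 TPM without DMSO and 148 and 171 TPM with it, where it still stood above every other member. Replicates lay close together and the groups were far apart. The mean fell from 326 ± 12.4 TPM to 159 ± 16.4 TPM (SD, n = 2 each), for a log2 fold change of -1.03 ± 0.24 (standard error, adjusted p = 0.0338 by limma and 0.0689 after quantile normalization). The fit without the trend of variance on level gave a limma adjusted p of 0.0559. A share of 33.3% of its words occurs in other genes, with 22.8% of all its words found in the processed pseudogene Gm13135, which itself measured 37.2 and 38.8 TPM without DMSO and 26.9 and 25.4 TPM with it. The level of Smarca5 is uncertain to that extent, since kallisto divides shared reads between the genes. Its paralog Smarca1 reached at most 0.288 TPM.

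Of the CHD members Chd1 fell and Chd4 did not pass the test. Chd1 (ENSMUSG00000023852, chromosome 17 from 15704967 to 15772610), which binds histone H3 methylated at lysine 4 and accompanies transcribing polymerase, measured 20.8 and 39.5 TPM without DMSO and 11.1 and 4.37 TPM with it. On the log2 scale it had the widest spread between replicates of the called members, yet both DMSO libraries were below both controls. Its mean fell from 30.1 ± 13.2 TPM to 7.73 ± 4.74 TPM (SD, n = 2 each), for a log2 fold change of -1.88 ± 0.49 (standard error, adjusted p = 0.0422 by limma and 0.0570 after quantile normalization). The call of Chd1 was lost in 9 of 11 alternatives, and those of Smarca5, Smarca4 and Smarca2 in 7, 6 and 5. For Chd1 these included median-ratio scaling, a pseudocount of 0.1 and a fit without the trend of variance on level. The limma adjusted p-values of Chd1 were then 0.0551, 0.0518 and 0.0505. Chd4 (ENSMUSG00000063870, chromosome 6 from 125095981 to 125130591), the motor of NuRD, was at 17.8 and 19.4 TPM against 47.0 and 28.0 TPM. Both DMSO libraries were above the controls, DMSO replicate 1 by far the more, and the log2 fold change of 0.93 had an interval from 0.13 to 1.72 (limma adjusted p = 0.0869). It was 0.57 without DMSO replicate 1. Chd3, which can take the place of Chd4 in NuRD, was at 2.07 and 1.67 TPM against 2.17 and 2.00 TPM, so that Chd4 made up 89.6% to 95.6% of the pair in every library.

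The INO80 members were near 0 and were not tested. Ino80 (ENSMUSG00000034154, chromosome 2 from 119373042 to 119477687), the motor of its complex, was listed at 0 and 0.406 TPM without DMSO and 0.262 and 0 TPM with it. None of its words occurs in another gene, and its libraries overlapped between the groups. Ruvbl1 (ENSMUSG00000030079, chromosome 6 from 88465409 to 88497572), a helicase-like subunit of the INO80, SRCAP and TIP60 complexes, was listed at 1.69 and 0.216 TPM against 0.407 and 0 TPM. Of its words 57.0% occur in the processed pseudogene Gm5837, which measured 14.0 and 11.8 TPM without DMSO and 42.6 and 20.9 TPM with it. The listed level of Ruvbl1 is therefore uncertain, and no fold change is given for either gene. Ruvbl2, the partner of Ruvbl1, was not analysed here.

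The order of the members by level differed between the groups. In control embryos Smarca5 was followed by Arid1a, Smarca4, Smarcb1, Chd1, Chd4 and Smarca2. Libraries of neighbouring genes overlapped in level for Smarca4 and Smarcb1, for Smarcb1 and Chd1, and for Chd4 and Smarca2. In DMSO-treated embryos Smarca5 was followed by Smarca2 and Arid1a at 55.2 and 55.1 TPM on average, then Chd4, Smarcb1, Smarca4 and Chd1. Smarca2 and Arid1a overlapped there, as did Chd4 and Smarcb1. The 9 members together summed to 545 and 552 TPM without DMSO and to 381 and 353 TPM with it, with Smarca5 holding the largest part of every sum.

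**Figure D3:**
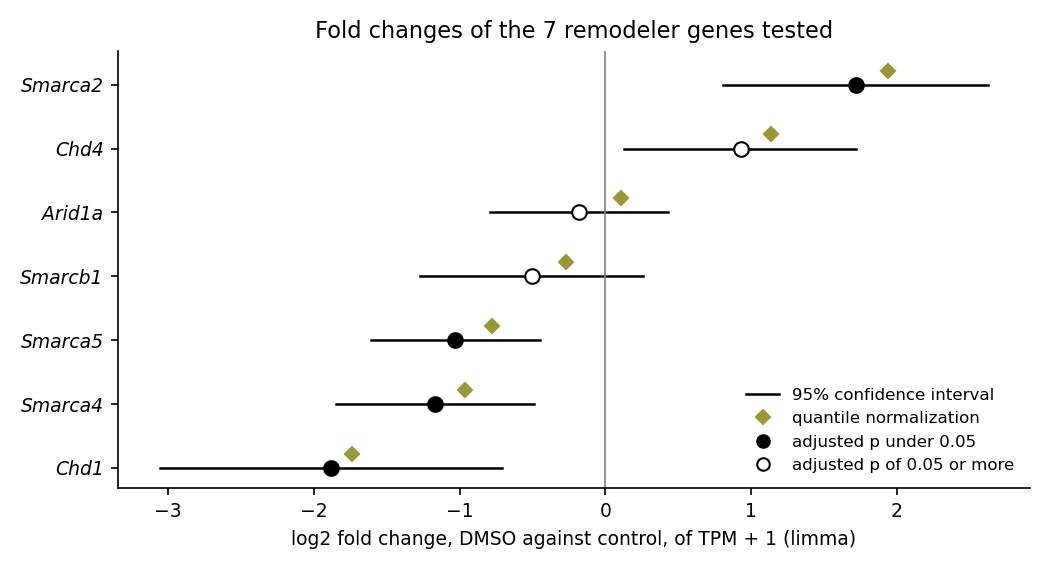
Log2 fold change of TPM + 1 in DMSO-treated against control embryos for the 7 remodeler genes tested, with 95% confidence intervals from limma, filled circles for an adjusted p-value under 0.05, open circles otherwise, and diamonds for the fold change after quantile normalization. Quantile normalization moved each value to the right, and Arid1a crossed 0, from -0.18 to 0.11.

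A list of 87 genes of remodeler complexes, which includes the 10 members, was read from the same fit. It had 85 genes in the table and 77 tested, of which 3 were called higher and 18 lower, or 27.3% against 20.5% of all genes. The median log2 fold change of the 77 was -0.46. After quantile normalization 3 were called higher and 6 lower, or 9 in all. This is 11.7% against 18.3% of all genes. The median log2 fold change was then -0.27 against 0.01 for all genes. The share of the list was thus above that of all genes in the first fit and below it after quantile normalization. Without the trend of variance on level it was also below, at 12 of 77 against 2026 of 12038, or 16.8%. With a mean of at least 5 TPM the shares were about equal, at 22 of 67 against 2450 of 7470. In the first fit, 17 of 70 genes were called when the members were left aside, or 24.3%, a share near that of all genes. With 1 library left out in turn, 0 to 8 of the 77 were called, 8 without DMSO replicate 2 and 0 without any of the other libraries. Sequence shared with other genes was counted for the members and their paralogs and not for the rest of the list.

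Among SWI/SNF genes, 2 were called higher and 4 lower of 23 tested, or 26.1% against 20.5% of all genes. Brd9, the bromodomain subunit of the non-canonical form of the complex, fell from 19 and 21 TPM to 2.74 and 3.2 TPM (log2 fold change -2.40, limma adjusted p = 0.0181). Smarce1, a core subunit with an HMG box, fell from 89.6 and 102 TPM to 23.0 and 22.2 TPM (log2 fold change -2.03, limma adjusted p = 0.0181). Both remained called after quantile normalization, each at an adjusted p of 0.0241. Dpf2, a reader of acetylated histones in BAF, fell from 11.4 and 11.7 TPM to 3.95 and 3.84 TPM. Ss18l1, a subunit known from neurons, rose from 5.37 and 2.62 TPM to 20.3 and 10.8 TPM (log2 fold change 1.72, limma adjusted p = 0.0407). Arid1b, the alternative to Arid1a, was at 9.51 and 6.95 TPM against 22.1 and 12.4 TPM and did not pass the test (limma adjusted p = 0.112). Arid1a made up 86.2% and 90.4% of their sum without DMSO and 72.5% and 80.8% with it, and the log2 ratio of the pair differed by -1.12 (two-sided exact permutation p = 0.333, the smallest possible). Smarcc2, the alternative to Smarcc1, was at 3.07 and 3.61 TPM against 1.33 and 2.11 TPM (limma adjusted p = 0.183).

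Among ISWI genes, 0 were called higher and 6 lower of 12 tested, or 50.0% against 20.5% of all genes called in either direction and 14.1% called lower. These were Smarca5 with Cecr2, Baz2b, Baz1a, Rbbp4 and Bptf, the last named after its value was seen, most of which are partners that direct Smarca5 or Smarca1 to chromatin, while Rbbp4 is a histone-binding subunit that NuRD also holds. Cecr2, known from the closing of the neural tube, fell from 244 and 231 TPM to 106 and 115 TPM, and Baz2b from 95.6 and 94.0 TPM to 47.0 and 46.3 TPM. Their log2 fold changes were -1.10 and -1.01 (limma adjusted p = 0.0300 and 0.0372). The 6 called genes had values from -1.10 to -1.01, and the 6 others tested ran from -0.61 to 0.53. By level the called genes lay at percentiles 81.4 to 96 of the genes tested. With a mean of at least 5 TPM required, 2450 of 7470 genes were called in either direction, a larger share than 20.5%. After quantile normalization 0 of the 12 were called, against 18.3% of all genes, and the median log2 fold change of the 12 moved from -0.81 to -0.57 while that of all genes moved from -0.09 to 0.01.

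Among CHD and NuRD genes, 0 were called higher and 2 lower of 16 tested, or 12.5% against 20.5% of all genes. These were Chd1 and the NuRD subunit Mbd3. The latter fell from 54.4 and 57.0 TPM to 25.3 and 31.5 TPM (just under the threshold of 0.05 by limma, and at an adjusted p of 0.105 after quantile normalization). Neither Chd1 nor Mbd3 was called after quantile normalization or median-ratio scaling. Among INO80 genes, 0 were called higher and 3 lower of 11 tested, or 27.3% against 20.5% of all genes. Actr5, an actin-related subunit particular to INO80, fell from 33.2 and 37.9 TPM to 9.55 and 17.1 TPM, Nfrkb from 14.3 and 13.3 TPM to 4.88 and 5.98 TPM, and Mcrs1 from 68.1 and 77.0 TPM to 27.6 and 40.3 TPM. After quantile normalization Nfrkb was still called, at a limma adjusted p of 0.0456, while Actr5 and Mcrs1 were not, at 0.0627 and 0.105. Other INO80 subunits were thus measured at moderate levels in libraries where Ino80 itself was near 0. Among 7 SRCAP and TIP60 genes, which place the histone variant H2A.Z, 0 were called higher and 2 lower, or 28.6% against 20.5% of all genes. Actr6, an actin-related subunit of SRCAP, fell from 54.5 and 67.2 TPM to 9.74 and 14.7 TPM (log2 fold change -2.24, limma adjusted p = 0.0181, and 0.0254 after quantile normalization), and Dmap1 from 7.51 and 10.4 TPM to 3.30 and 2.37 TPM. Of 8 other SNF2 ATPases 1 was called in each direction, or 25% in all against 20.5% of all genes. Smarcal1, which remodels stalled replication forks, rose from 3.76 and 2.37 TPM to 12.7 and 8.78 TPM (log2 fold change 1.53, limma adjusted p = 0.0341), and Smarcad1 fell from 21.5 and 27.1 TPM to 11.5 and 9.93 TPM (limma adjusted p = 0.0445, and 0.0656 after quantile normalization).

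**Figure D4:**
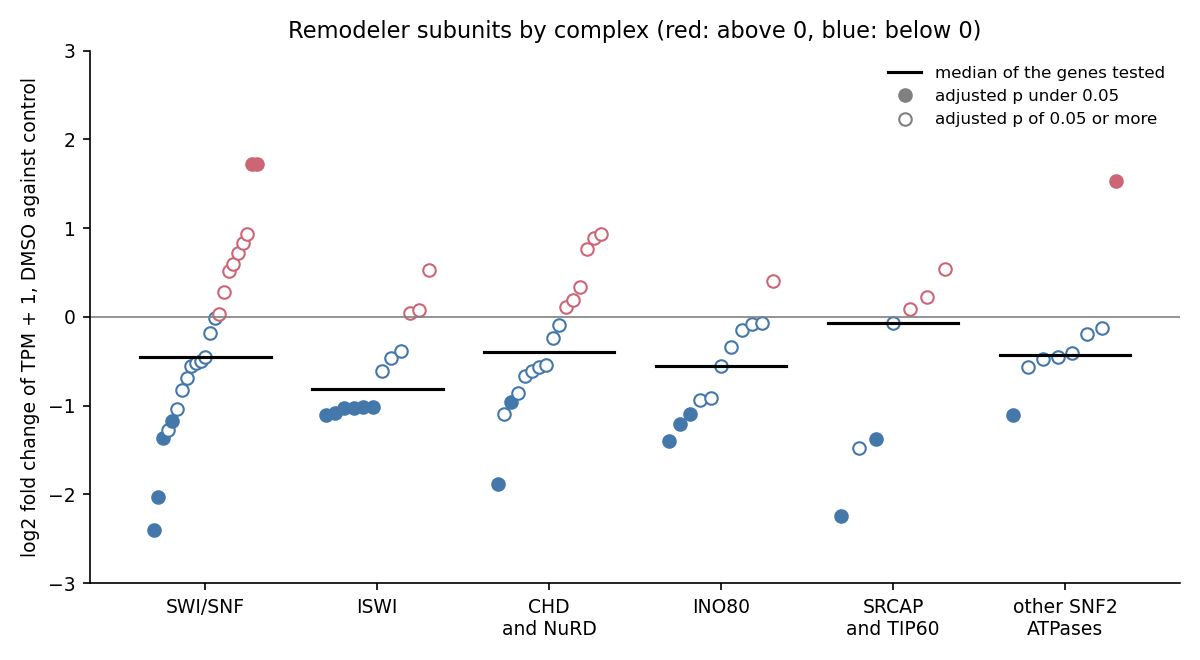
Log2 fold change of TPM + 1 in DMSO-treated against control embryos for the 77 remodeler genes tested, grouped by complex, with filled points for an adjusted p-value under 0.05 (limma), open points otherwise, and a black line at the median of each group. The 6 called ISWI genes lie between -1.10 and -1.01, and only SWI/SNF and the other SNF2 ATPases hold genes called higher.

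The gene of the list whose profile over the 4 libraries was most like that of each called member was found by the Euclidean distance of log2(TPM + 1) centred on its mean. For Smarca5 it was Rbbp4, which measured 64.1 and 64.8 TPM without DMSO and 30.1 and 33.2 TPM with it, with a distance of 0.07 where the median over 76 genes was 0.90. For Smarca4 it was Baz1a (distance 0.22, median 0.98), and for Smarca2 it was Smarcal1 (0.49, median 2.28). For Chd1 the nearest gene was Znhit1 (0.62, median 1.85), which was not called. These distances rest on 4 libraries and are a description.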

How the data were processed

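RNA of pooled mouse 2-cell embryos was sequenced in 4 libraries. The authors ran kallisto against the Ensembl transcripts of GRCm38 (mm10), added up the transcripts of a gene with tximport, and deposited TPM values. STAR, SAMtools and bedtools also appear in the submitters' processing notes. The authors tested estimated counts with DESeq2, and since TPM values are not counts that test was not run here. All columns of the table were used, with groups and replicate numbers taken from the sample labels.

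The test was limma (version 3.58.1, R 4.3.3) on log2(TPM + 1) of genes averaging at least 1 TPM, by lmFit and eBayes with a trend of variance on level and without a block for replicates, at an adjusted p-value threshold of 0.05. Each gene had 2 residual degrees of freedom and 4.59 prior ones. Fold changes on this scale understate changes of low genes. The fit was tested on simulated data for this comparison. With 200 of 12038 genes changed by 3 on the log2 scale 200 were recovered with 6 false calls, and with 0 changed, 0 were called. The log2 fold changes of the members tested were smaller, from -1.88 for Chd1 to 1.72 for Smarca2. How many genes the fit recovers at such sizes was not tested. Names and coordinates came from GENCODE M21 (GRCm38), which named 29668 of the 30049 identifiers, and promoters from RefSeq. Shared 31-base words were counted on both strands over GENCODE M21 transcripts. The paper names a release of the Ensembl transcripts of GRCm38 instead, and how far the sets differ was not tested.

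The members, the wider list and the tests were chosen with earlier results of these data known. The genes named are the members, up to 3 genes called in each direction per complex with the lowest adjusted p, the paralog partners, and the nearest gene to each called member, with Bptf and the genes of the closing section named outside this rule. Alternatives were a pseudocount of 0.1, no filter, a mean of at least 5 TPM, no trend, quantile normalization, median-ratio scaling, a replicate block and leaving out each library. Other steps ran in Python 3.11.15 with numpy 2.4.6, pandas 2.3.3, matplotlib 3.10.9 and scipy 1.17.1.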

Additional observations from a re-analysis of the deposited data

How the results depend on the processing

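All 4 called members kept their direction under the 11 alternatives run, with log2 fold changes from 1.22 to 2.22 for Smarca2, -1.35 to -0.96 for Smarca4, -1.14 to -0.78 for Smarca5 and -2.47 to -1.30 for Chd1. With a library left out, those of the members not called ran from 0.57 to 1.29 for Chd4, -0.79 to -0.22 for Smarcb1 and -0.26 to -0.10 for Arid1a, which reversed, to 0.11, under quantile normalization. The number of calls was less stable. Of the members, 4 were called by limma on the deposited values, 1 after quantile normalization, 2 without the trend, and 0 with no filter on low values, where 5 had an unadjusted p-value under 0.05. Of the wider list 21 were called, against 9 after quantile normalization, 12 without the trend, 35 with the replicate block, and 0 with no filter, where 31 had an unadjusted p-value under 0.05. Of all genes 2470 were called, against 2026 without the trend, or 16.8%, 5132 with the block, or 42.6%, and 0 of 22257 with no filter, although 5368 had an unadjusted p-value under 0.05. With each library left out in turn, the lone library of its group being assumed to vary like the others, the calls ran from 0 to 0 for the members, 0 to 8 for the wider list and 0 to 1883 for all genes. Only the fit without DMSO replicate 2 made calls, and unadjusted p-values under 0.05 numbered at least 2602 in each of the 4. With the replicate number as a block, which leaves 1 residual degree of freedom, 5 of 7 members were called, Chd4 being added at a limma adjusted p of 0.0352. Of the wider list 9 were then called higher and 26 lower. Arid1b, Bcl7c and Brd7 were among those higher, at limma adjusted p = 0.0245, 0.0311 and 0.0391. Smarcd1, Bcl7b and Bcl7a were among those lower, at limma adjusted p = 0.0263, 0.0281 and 0.0308. The deviations of same-numbered libraries had a correlation of 0.35 across the genes tested, which are not independent of each other, but nothing in the labels says that the numbers pair the libraries. The difference in the Smarca5 to Smarca1 log2 ratio was -0.80 (-0.91 to -0.69 with a library left out) and became 0.25 with a pseudocount of 0.1, since Smarca1 was near 0. Those of Arid1a to Arid1b and Chd4 to Chd3 lay between -1.44 and -0.81 and between 0.50 and 1.14 with a library left out. Median-ratio scaling and the mean of at least 5 TPM left the counts for the members, the wider list and all genes within 1.5 times. With that mean fewer genes were tested, and 22 of 67 in the wider list and 2450 of 7470 in all were called. Under median-ratio scaling 15 of 77 in the wider list and 2234 of 12038 in all were called. The calls under this scaling fell from 3 to 1 for INO80 genes, from 2 to 0 for CHD and NuRD genes and from 2 to 1 for the other SNF2 ATPases. TPM values keep no depth, so no limit of detection could be set for Ino80 or Ruvbl1. Except for Smarca1, the cause of these differences was not tested.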

Other observations

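Several other remodeler subunits of the wider list stood out by their level, and they were chosen after their values were seen. Bcl7c, a small SWI/SNF subunit, was the most abundant gene of the wider list in the DMSO libraries, measured 510 and 326 TPM without DMSO and 659 and 685 TPM with it. It did not pass the test (limma adjusted p = 0.118), and its paralogs Bcl7b, at 25.8 and 27.6 TPM against 13.0 and 16.5 TPM, and Bcl7a, at 1.86 and 4.64 TPM against 0.589 and 0.755 TPM, lay on the other side of 0, at limma adjusted p = 0.0815 and 0.0769. Smarcd2 was the leading subunit of its set, at 89.1 and 71.1 TPM against 69.1 and 95.3 TPM, while Smarcd1 reached at most 6.96 TPM and Smarcd3 at most 1.06 TPM.

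The same was done for 4 subunits of the PBAF form of SWI/SNF. Pbrm1 measured 35.3 and 31.3 TPM without DMSO and 33.9 and 32.2 TPM with it, Arid2 at 48.4 and 44.0 TPM against 58.5 and 53.6 TPM, Phf10 at 54.4 and 41.4 TPM against 66.8 and 69.8 TPM, and Brd7 at 113 and 86.1 TPM against 187 and 120 TPM. None of these 4 passed the test (limma adjusted p from 0.197 for Phf10 to 0.985 for Pbrm1), and whether they differ from Brd9 or Dpf2, which fell, was not tested.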
